A study of Mus musculus with 4 samples.

Results

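The collagen genes of the mouse were followed in tumour epithelial cells sorted with or without a fluorescent reporter for Sox2. They were taken by symbol, as every gene named Col, a number, the letter a and a number for which a probe set carried that symbol alone. This gave 42 genes, read by 82 probe sets, out of 18193 genes named on the array, and where a gene had several, the one brightest on average was used. By the known structure of their products, 11 were fibrillar collagens, 9 collagens of the basement membrane and its anchoring fibrils, 4 transmembrane collagens and 18 others, which are fibril-associated, beaded-filament and short-chain collagens. Sox2-GFP-positive cells (n = 2 arrays) were compared with Sox2-GFP-negative cells (n = 2 arrays). Both came from chemically induced, malignant squamous cell carcinomas of mouse skin, from 2 tumours of 2 mice by the series text. In both groups living cells had been gated as Epcam-positive and as negative for CD45, CD31 and CD140a, surface proteins of leukocytes, endothelium and mesenchymal cells. Tumours had been digested with collagenase I before sorting. The sources used here do not give the strain, the age, the carcinogen or how the reporter was built.

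Collagens are secreted or membrane proteins whose chains wind into a triple helix. Fibrillar collagens, chiefly types I, III and V, form the banded fibrils of the dermis and are made mainly by fibroblasts. Type IV collagen forms the sheet-like network of basement membranes, to which the epidermis is tied by anchoring fibrils of type VII collagen and by type XVII collagen, a transmembrane protein of the hemidesmosome. Keratinocytes make types VII and XVII themselves. In carcinomas the fibril-forming types are best known as products of the stroma, while types VII and XVII belong to the epithelial side of the basement membrane.

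Values are the deposited log2 values, so a step of 1 is a factor of 2 in signal. The arrays had medians between 5.49 and 5.60 and 5th percentiles between 3.34 and 3.37, the latter a guide to the floor. No detection calls were given, so dim genes only bound a transcript's level. Values of different probe sets are not compared as levels. Differences are Sox2-GFP-positive minus Sox2-GFP-negative, tested with limma over all 18193 genes with Benjamini-Hochberg adjustment and a threshold of 0.05. The labels do not say whether the arrays of a group are separate animals beyond the 2 tumours named, and p-values measure only the spread between these arrays.

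The windows just before the transcription start are shown for a pair of collagens that read lower in Sox2-GFP-positive cells, Col1a2 and Col6a1, and for the keratinocyte collagens Col7a1 and Col17a1. They are the 250 bases upstream of the start in RefSeq, build GRCm38.p6, written along the gene's own strand. Such a window was found for 33 of the 42 genes. Capitals mark matches, on either strand, to CCAAT, to the GC box GGGCGG, to TATAAA and to the AP-1 sequence TGANTCA.
Col1a2, chr6:4505368-4505617, plus strand: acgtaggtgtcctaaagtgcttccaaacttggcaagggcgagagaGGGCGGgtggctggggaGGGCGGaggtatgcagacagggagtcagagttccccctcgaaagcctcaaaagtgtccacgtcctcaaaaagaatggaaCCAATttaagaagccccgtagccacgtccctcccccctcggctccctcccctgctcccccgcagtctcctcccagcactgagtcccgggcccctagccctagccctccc
Col6a1, chr10:76726045-76726294, minus strand: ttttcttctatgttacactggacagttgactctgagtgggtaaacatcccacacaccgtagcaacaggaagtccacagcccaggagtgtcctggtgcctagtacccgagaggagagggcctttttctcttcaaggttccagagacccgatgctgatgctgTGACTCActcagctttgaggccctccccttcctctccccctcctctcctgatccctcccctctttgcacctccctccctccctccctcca
Col7a1, chr9:108953336-108953585, plus strand: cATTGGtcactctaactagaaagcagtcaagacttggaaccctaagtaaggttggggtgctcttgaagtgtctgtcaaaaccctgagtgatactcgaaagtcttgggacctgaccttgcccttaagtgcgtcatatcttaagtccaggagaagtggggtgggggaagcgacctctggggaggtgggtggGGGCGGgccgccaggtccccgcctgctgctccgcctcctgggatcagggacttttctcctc
Col17a1, chr19:47692043-47692292, minus strand: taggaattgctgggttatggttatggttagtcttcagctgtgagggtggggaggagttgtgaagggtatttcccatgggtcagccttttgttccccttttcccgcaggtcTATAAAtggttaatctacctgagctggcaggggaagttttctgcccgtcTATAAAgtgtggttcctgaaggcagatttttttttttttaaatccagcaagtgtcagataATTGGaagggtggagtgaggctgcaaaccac
Col1a2, Col7a1 and Col17a1 each held 1 match to CCAAT, Col1a2 held 2 GC boxes and Col7a1 held 1, and Col17a1 held 2 matches to TATAAA. Col6a1 held none of these 3 motifs but was the only collagen, of the 33, with the AP-1 sequence (3.03%, beside 7.82% of all genes). CCAAT was present in 13 of the 33 collagens (39.4%) and in 37.5% of all genes with a window. The GC box was present in 20 of the 33 (60.6%) and in 35.4% of all genes, and TATAAA in 5 (15.2%) and 14.3%. A match describes these letters only. No factor was measured here.

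No collagen passed the limma test, where the share of all genes called was 0.0% in either direction. The lowest adjusted p among the 42 was 0.197. At an unadjusted p under 0.05 stood 2 collagens higher and 11 lower in Sox2-GFP-positive cells, beside 9.75% and 5.22% of all genes. When the replicate number entered the fit as a block ("blocked" from here on), 9 collagens passed, all lower, beside 0.868% of all genes called lower and 0.0715% called higher. They were Col5a1, Col5a2, Col5a3, Col27a1, Col4a1, Col6a1, Col6a2, Col6a3 and Col8a1. These calls were absent when the block was used on the brighter genes only (0 of 22 collagens) or after quantile normalization over the 18193 genes (0 of 42). In these settings 0 of all 9097 brighter genes and 0 of all 18193 genes were called, so blocked calls of any gene depend on the processing. Counted without a test, both Sox2-GFP-positive arrays lay below both Sox2-GFP-negative arrays in 19 collagens (14.0% of all genes did so) and above them in 4 (35.5% of all genes). Groups apart by at least 1 log2 unit were found in 4 collagens lower and none higher, beside 1.36% and 0.665% of all genes. When arrays were instead scaled to the spiked bacterial poly-A transcripts, the median difference over all genes was 0.93 in place of 0.14 and the split became 4 lower and 20 higher, beside 1.94% and 84.8% of all genes.

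**Figure D1:**
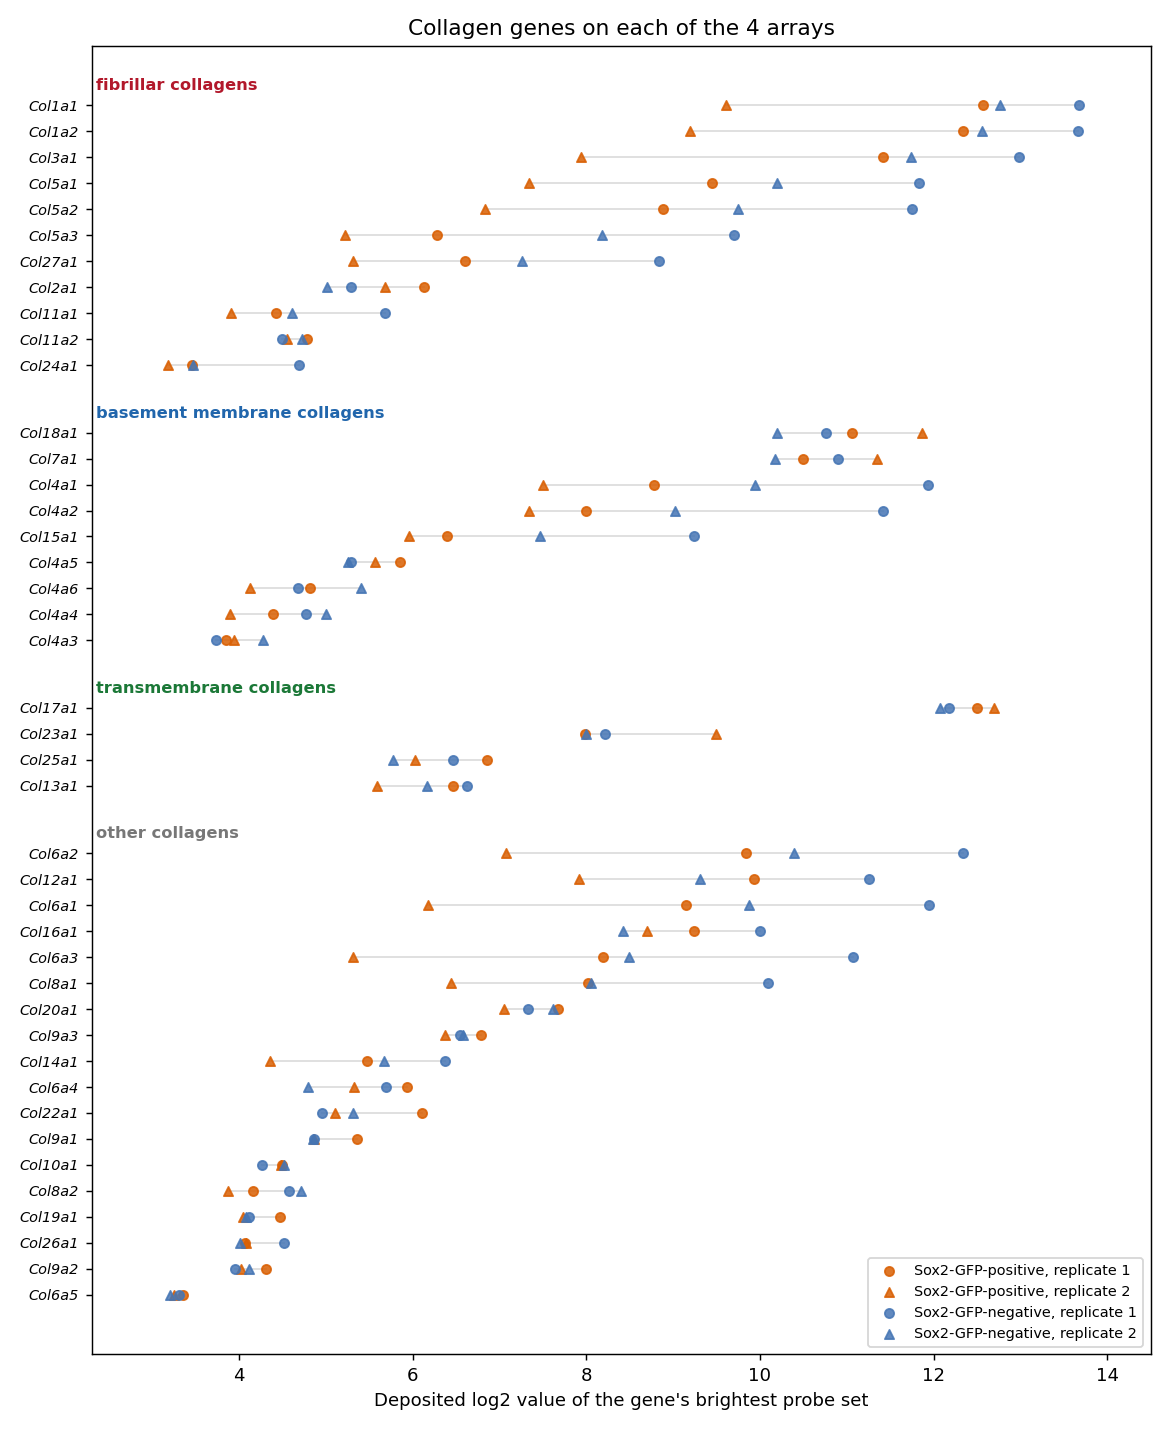
Deposited log2 value (horizontal axis) of each of the 42 collagen genes, grouped by class, on the 4 arrays. Orange points are Sox2-GFP-positive and blue points Sox2-GFP-negative arrays, with circles for replicate 1 and triangles for replicate 2. In Col1a1 positive replicate 2 stands apart at 9.60, while positive replicate 1 at 12.57 lies just under negative replicate 2 at 12.76.

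The fibrillar collagens read lower in Sox2-GFP-positive cells, with a median log2 difference of -2.13 over the 11 genes, against 0.14 over all 18193. In 9 of the 11 the groups were apart and lower (14.0% of all genes), in 1 (Col2a1) apart and higher (35.5%), and in 1 (Col11a2) they overlapped. Of the 9, Col24a1 was dim and apart by only 0.014 log2 units, and the dimmer probe set of Col11a1 differed by only -0.07. None passed the limma test, and with the block 4 passed, all lower, beside 0.868% of all genes called lower. On spike-in scaled values the class median was -1.34, against 0.93 over all genes. It was -0.76 without positive replicate 2 and -3.62 without positive replicate 1.

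Col1a1 and Col1a2 encode the chains of type I collagen, the main fibril of dermis and bone. Col1a1 read 12.57 and 9.60 in the Sox2-GFP-positive arrays and 13.68 and 12.76 in the Sox2-GFP-negative arrays. Col1a1 thus differed by -2.13 ± 1.01 (SE, 2 arrays a group, adjusted p = 0.402, or 0.138 blocked). Its groups did not overlap, but only 0.19 log2 units lay between them, and most of the difference came from positive replicate 2. Col1a2 read 12.34 and 9.20 against 13.66 and 12.55 (-2.34 ± 1.08, adjusted p = 0.394, or 0.115 blocked). Col3a1, the chain of type III collagen that accompanies type I in soft tissue, read 11.41 and 7.94 against 12.99 and 11.73 (-2.69 ± 1.19, adjusted p = 0.381, or 0.101 blocked). The 3 genes shared 1 pattern, with positive replicate 1 close under negative replicate 2 and positive replicate 2 far below.

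Type V chains, which sit inside type I fibrils and set their width, read lower by similar amounts in both replicates. Col5a3 read 6.28 and 5.22 against 9.70 and 8.18, which was 9.15-fold lower (-3.19 ± 0.62, adjusted p = 0.197, or 0.0262 blocked). It was the only fibrillar collagen with its groups apart by more than 1 log2 unit, with 1.90 between the nearest arrays. Col5a1 read 9.45 and 7.34 against 11.83 and 10.20 (-2.62 ± 0.87, adjusted p = 0.290, or 0.0308 blocked). Col5a2 read 8.88 and 6.83 against 11.76 and 9.75 (-2.90 ± 0.93, adjusted p = 0.281, or 0.0262 blocked). Col27a1, a fibrillar collagen best known from cartilage, read 6.61 and 5.31 against 8.84 and 7.25 (-2.09 ± 0.68, adjusted p = 0.283, or 0.0389 blocked). In these 4 genes both arrays of 1 group lay on the same side of both arrays of the other, by 0.65 log2 units or more.

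The other 4 fibrillar genes, Col2a1, Col11a1, Col11a2 and Col24a1, had means below the median gene, with differences from -0.98 to 0.76 and adjusted p from 0.283 to 0.923. Col2a1, the chain of cartilage type II collagen, had the opposite sign, with 6.13 and 5.68 against 5.29 and 5.01.

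**Figure D2:**
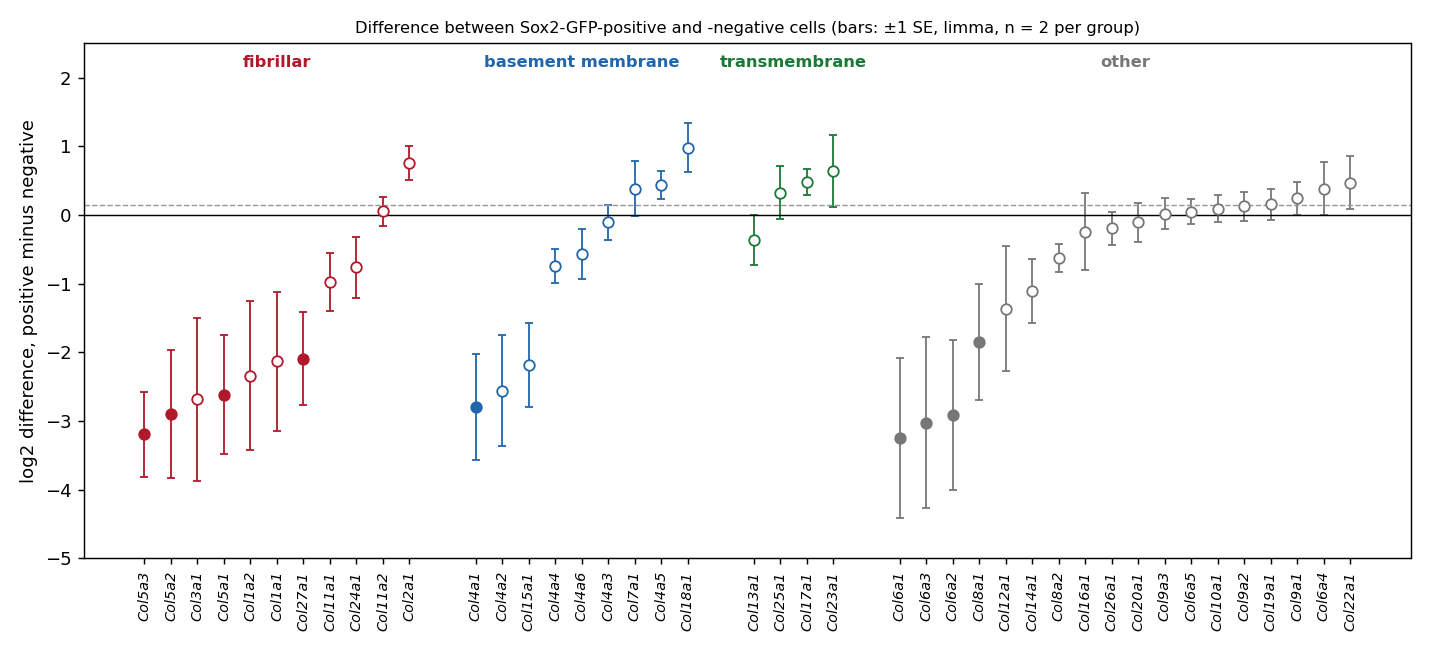
Log2 difference (vertical axis, Sox2-GFP-positive minus Sox2-GFP-negative) of each collagen, by class, with bars of 1 SE from limma. Filled points passed an adjusted p of 0.05 with the replicate block and the dashed line is the median over all genes, 0.14. The filled points are 4 fibrillar, 1 basement membrane and 4 other collagens, all below -1.8.

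The basement membrane collagens divided. The chains Col4a1 and Col4a2, which form the type IV network of most tissues, and Col15a1 read lower, while Col18a1 read higher and Col7a1 overlapped. The class median was -0.57, and 0.22 on spike-in scaled values, where it still lay below that of all genes. Of the 9 genes, 4 had their groups apart and lower and 2 apart and higher, where 14.0% and 35.5% of all genes did.

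Col4a1 read 8.78 and 7.50 in the Sox2-GFP-positive arrays against 11.93 and 9.95 in the Sox2-GFP-negative arrays, a 6.95-fold lower value (-2.80 ± 0.77, adjusted p = 0.247, or 0.0308 blocked). Col4a2 read 7.99 and 7.34 against 11.42 and 9.03 (-2.56 ± 0.81, adjusted p = 0.276, or 0.0796 blocked). Both had their groups apart by at least 1 log2 unit, with negative replicate 1 the highest array. In RefSeq these genes lie head to head, and the starts of their transcripts are 21 bases apart. Col15a1, a collagen of the outer face of vascular and muscle basement membranes, read 6.39 and 5.96 against 9.24 and 7.47 (-2.18 ± 0.61, adjusted p = 0.248, or 0.0789 blocked).

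Col18a1 makes type XVIII collagen, a basement membrane proteoglycan of epithelium and vessels and the source of endostatin. It read 11.06 and 11.87 in the Sox2-GFP-positive arrays against 10.76 and 10.20 in the Sox2-GFP-negative arrays (0.98 ± 0.36, 95% confidence interval 0.05 to 1.92, limma adjusted p = 0.320). The groups did not overlap, and its 2 probe sets differed by 0.98 and 0.64. In the second of these the groups overlapped, at 10.80 and 11.65 against 10.96 and 10.20. Col7a1, the anchoring fibril collagen, read 10.49 and 11.35 against 10.90 and 10.18 (0.39 ± 0.40, interval -0.65 to 1.42, adjusted p = 0.675). Its groups overlapped, because positive replicate 1 lay below negative replicate 1, and without positive replicate 2 the difference was -0.043. The remaining type IV chains, Col4a3 to Col4a6, were all dimmer than the median gene, with differences from -0.75 to 0.44. Col4a5, a chain of the epidermal basement membrane, read 5.85 and 5.56 against 5.29 and 5.25, and its usual partner Col4a6 read 4.82 and 4.13 against 4.68 and 5.41.

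The transmembrane collagens had a median difference of 0.40, beside 0.14 over all genes, and of 1.19 beside 0.93 on spike-in scaled values. With the mean of each gene's probe sets it was 0.19, and with the second brightest 0.056. Col17a1, the hemidesmosome collagen also called BP180, was bright on every array, at 12.51 and 12.70 in the Sox2-GFP-positive and 12.17 and 12.07 in the Sox2-GFP-negative arrays. Col17a1 thus differed by 0.48 ± 0.19 (SE, 2 arrays a group, 95% confidence interval -0.02 to 0.98, limma adjusted p = 0.349). Its groups were apart by 0.33 log2 units, and 35.5% of all genes were apart in that direction. Col23a1, a membrane collagen found on keratinocytes, read 7.98 and 9.50 against 8.21 and 7.99 (0.64 ± 0.52, adjusted p = 0.594). In this probe set only positive replicate 2 stood out, and without it the difference was -0.12. All 3 probe sets of Col23a1 read higher, by 0.17 to 0.91. The probe set with 0.91 had its groups apart, at 7.86 and 8.86 against 7.36 and 7.55. Col13a1, a membrane collagen of cell-matrix contacts, read 6.47 and 5.59 against 6.63 and 6.17 (-0.37 ± 0.36, adjusted p = 0.663; 0.42 on spike-in scaled values). Col25a1, first known from amyloid plaques, read 6.86 and 6.02 against 6.46 and 5.77, and its other probe set gave a difference of -0.53. No transmembrane collagen was shown to differ.

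Among the 18 other collagens the median difference was -0.15, and 0.64 on spike-in scaled values, which is below that of all genes there. The type VI chains Col6a1, Col6a2 and Col6a3, which build the beaded microfilaments around cells, had the lowest differences of the class. Col6a1 read 9.14 and 6.17 against 11.94 and 9.87, 9.51-fold lower (-3.25 ± 1.17, adjusted p = 0.313, or 0.0282 blocked). Col6a2 read 9.84 and 7.07 against 12.34 and 10.39 (-2.91 ± 1.09, adjusted p = 0.324, or 0.0308 blocked). Col6a3 read 8.19 and 5.32 against 11.07 and 8.49 (-3.03 ± 1.25, adjusted p = 0.353, or 0.0262 blocked). In all 3 the groups were apart, by 0.30 to 0.73 log2 units, with positive replicate 1 nearer to negative replicate 2 than to positive replicate 2. The other measured chains of this type, Col6a4 and Col6a5, were dim, with differences of 0.38 and 0.05.

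Col8a1, a short-chain collagen of vessels and remodelling tissue, read 8.02 and 6.44 against 10.09 and 8.06 (-1.85 ± 0.84, adjusted p = 0.389, or 0.0484 blocked), and only 0.04 log2 units lay between the groups. Col12a1, which coats type I fibrils, read 9.93 and 7.92 against 11.26 and 9.31 (-1.36 ± 0.91, adjusted p = 0.526, or 0.0807 blocked). Its groups overlapped, while all 4 of its probe sets read lower. Col16a1, a fibril-associated collagen that also lies near basement membranes, read 9.23 and 8.69 against 10.00 and 8.42 (-0.24 ± 0.56, adjusted p = 0.856; 0.55 on spike-in scaled values). For the fibril-associated collagens as a whole, the 9 genes had a median of 0.02. Of them 1, Col14a1, was apart and lower (14.0% of all genes) and none apart and higher (35.5%). Every other gene of the class lay between -1.11 (Col14a1) and 0.47 (Col22a1), with adjusted p from 0.290 to 0.978.

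Of the measured collagens, 7 pairs are neighbours on a chromosome, and their differences are given side by side as a description. Col3a1 and Col5a2 lie next to each other and differed by -2.69 and -2.90. Col6a1 and Col6a2 differed by -3.25 and -2.91, and Col4a1 and Col4a2 by -2.80 and -2.56. Col9a1 and Col19a1, another adjacent pair, differed by 0.25 and 0.16. Col4a5 and Col4a6, which are also adjacent, had opposite signs, at 0.44 and -0.57. Col4a3 and Col4a4 differed by -0.11 and -0.75, and Col6a4 and Col6a5 by 0.38 and 0.05.

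The probe sets mostly told 1 story. Of 27 collagens with more than 1 probe set, 21 had every probe set on the same side. The 6 that did not were Col4a3, Col4a4, Col9a3, Col20a1, Col25a1 and Col26a1, whose differences were between -0.75 and 0.33. For Col3a1 and Col1a2, but not Col1a1, a dimmer probe set gave another size between the replicate 1 arrays. The chosen probe set of Col3a1 differed by -1.57 in replicate 1 and by -3.80 in replicate 2, and its dimmer probe set by -3.18 and -3.90. For Col1a2 the chosen probe set gave -1.32 and -3.36, and the dimmest of its 3 gave -3.19 and -1.32. Both probe sets of Col1a1 gave -1.11 and -1.13 between the replicate 1 arrays. The cause was not tested.

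Between arrays of the same number, the fibrillar class had a median difference of -1.32 for replicate 1 and -2.86 for replicate 2. The basement membrane class had -0.39 and -1.11, the transmembrane class 0.09 and 0.44, and the others -0.18 and -0.21. Col5a2 kept nearly 1 size, at -2.87 and -2.92, and so did Col12a1, at -1.33 and -1.40. Col18a1 read 0.30 and 1.67, and Col7a1 changed side, at -0.40 and 1.17.

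**Figure D3:**
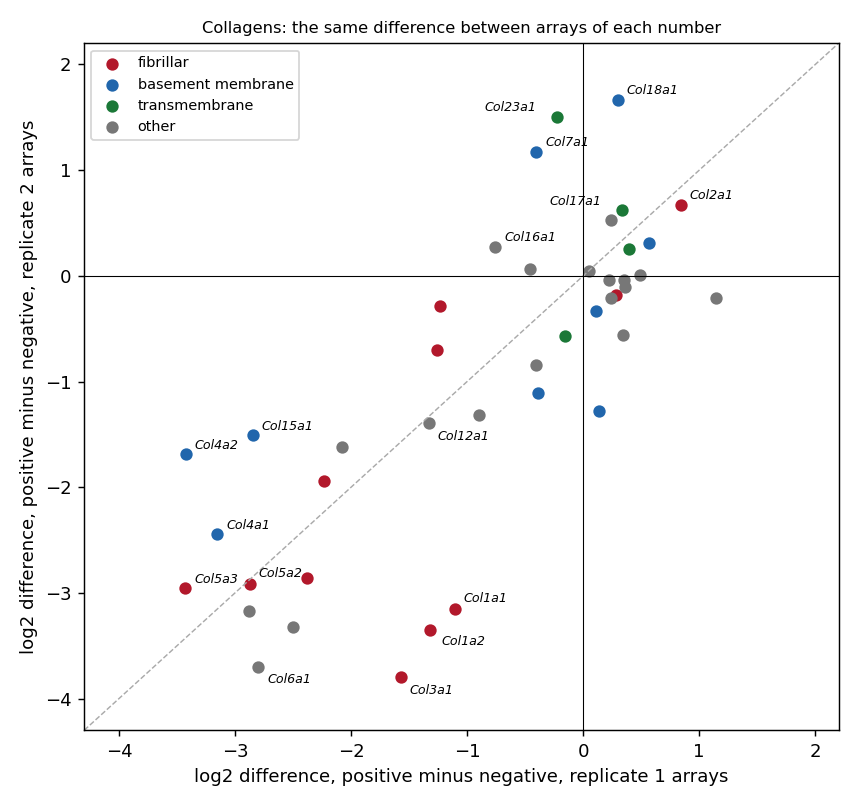
Log2 difference, Sox2-GFP-positive minus Sox2-GFP-negative, for each collagen, with the replicate 1 arrays on the horizontal and the replicate 2 arrays on the vertical axis, coloured by class, with a dashed line of equal values. Col5a2 and Col12a1 lie close to the line, Col1a1 lies at -1.11 and -3.16, and Col18a1, Col7a1 and Col23a1 lie above the line at the top.

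Genes that modify, export, process, cross-link or bind collagen were read from a list of 42, of which 37 were measured. None passed the limma test; before adjustment 4 higher and 6 lower genes had a p under 0.05, beside 9.75% and 5.22% of all genes. In the blocked fit 6 passed, all lower, beside 0.868% of all genes. These too fell to 0 on the brighter genes only or after quantile normalization over the genes, where 0 of all genes were called. Groups were apart and higher in 7 (35.5% of all genes) and apart and lower in 11 (14.0%).

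Prolyl and lysyl hydroxylases and collagen chaperones act on the chains in the endoplasmic reticulum. The 15 measured hydroxylases, glycosyltransferases and chaperones had a median difference of 0.19, near the 0.14 of all genes. Of them 3 were apart and higher, 1 apart and lower and 11 overlapping, where 35.5% and 14.0% of all genes were apart. The lower one was P4ha3, a catalytic chain of prolyl hydroxylase, at 7.07 and 5.45 against 8.82 and 7.78 (-2.04 ± 0.64, adjusted p = 0.272, or 0.0433 blocked). Plod2, the lysyl hydroxylase of collagen ends, read 8.45 and 8.87 against 8.45 and 6.90 (0.98 ± 0.54, adjusted p = 0.460), and only negative replicate 2 stood apart. Serpinh1, the collagen chaperone HSP47, read 11.10 and 11.22 against 11.57 and 10.42.

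The lysyl oxidases, which cross-link fibrils outside the cell, read lower with the fibrillar chains. Lox read 5.47 and 4.27 against 8.71 and 6.73 by its brightest probe set (-2.85 ± 0.76, adjusted p = 0.242, or 0.0308 blocked), and another of its 3 probe sets gave -0.00. Loxl1 read 6.51 and 4.69 against 8.77 and 7.12 (-2.34 ± 0.80, adjusted p = 0.300, or 0.0308 blocked), and Loxl3 6.27 and 5.17 against 8.35 and 7.05 (-1.98 ± 0.57, adjusted p = 0.250, or 0.0399 blocked). Loxl4 overlapped, with a difference of -0.13.

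Among the genes of propeptide removal, Pcolce read lower and Tll1 higher. Pcolce, which speeds the cutting of fibrillar procollagen, read 7.16 and 5.42 against 9.51 and 7.31 (-2.12 ± 0.91, adjusted p = 0.370, or 0.0397 blocked). Tll1, a tolloid-like procollagen C-proteinase, was higher on both Sox2-GFP-positive arrays, at 6.79 and 8.51 against 5.28 and 5.52. It was 4.75-fold higher (2.25 ± 0.59, adjusted p = 0.237, or 0.0822 blocked) and the only gene of the list apart upwards by 1 log2 unit. Bmp1, the related proteinase, overlapped (0.40 ± 0.27, adjusted p = 0.524).

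Of the receptors, Ddr2, a receptor kinase for fibrillar collagen, read 6.33 and 6.28 against 8.60 and 9.40 (-2.70 ± 0.31, adjusted p = 0.157, or 0.0347 blocked). Its groups were 2.28 log2 units apart. Unlike every fibrillar chain but the dim Col11a2, it was higher in negative replicate 2 than in negative replicate 1. Ddr1, the epithelial relative that also binds type IV collagen, read 9.75 and 9.48 against 10.30 and 10.22 (-0.65 ± 0.20, adjusted p = 0.271). Its 8 probe sets disagreed, with 6 lower and 2 higher, from -0.65, the one used, to 0.25. Itga1, the integrin chain that binds type IV collagen, read 6.18 and 5.51 against 8.36 and 6.45 (-1.56 ± 0.67, adjusted p = 0.367, or 0.129 blocked). Itga2, the collagen integrin chain of keratinocytes, overlapped at 8.64 and 10.10 against 8.36 and 9.59, and its partner Itgb1 read 11.64 and 11.93 against 11.24 and 11.22.

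Fibroblast and pericyte markers read lower together with the fibrillar collagens. Of the 14 fibroblast and pericyte markers listed, none of them a collagen, 13 were measured. Their groups were apart and lower in 11 (14.0% of all genes) and apart and higher in none (35.5%). The groups overlapped in Fbln1 (-0.40) and Twist2 (-0.69). Probe sets disagreed in Fbln1, where another gave 0.69, and in Dcn, where the one used gave -3.18 and the other 0.05. None of the 13 passed the limma test, with a lowest adjusted p of 0.180. At an unadjusted p under 0.05 stood 8, all lower, beside 5.22% of all genes. In the blocked fit 6 passed, all lower, beside 0.868% of all genes. Their mean log2 value was 7.31 and 5.72 in the Sox2-GFP-positive arrays and 9.54 and 7.96 in the Sox2-GFP-negative arrays. The 11 fibrillar collagens ran 7.85 and 6.25 against 9.33 and 8.20, so the order of the 4 arrays was the same. Pdgfra, which encodes the gated CD140a, read 5.93 and 4.85 against 7.83 and 5.96, and Lum, a proteoglycan of collagen fibrils, 7.04 and 4.57 against 10.04 and 7.82. Fap, a fibroblast protease, was near the array floor in the Sox2-GFP-positive arrays, at 3.58 and 3.31. The part of such cells in the collagen values was not tested, and in sorted bulk cells fewer cells of a type and less RNA per cell cannot be told apart.

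Endothelial markers (8 of 8 measured, 1 apart and lower) had means of 5.89 and 5.14 against 7.45 and 5.83, and leukocyte markers (6 measured, 1 apart each way) 5.83 and 5.27 against 6.59 and 5.67. In both, the mean of positive replicate 1 lay above that of negative replicate 2. The median difference was -1.02 for the endothelial and -0.61 for the leukocyte markers. Of the endothelial markers 7 read lower in both replicates and none higher in both, and of the leukocyte markers 3 and 2. The part of such cells in the collagen values was not tested. Melanocyte markers (5 of 5 measured, 4 apart and lower) had means of 5.04 and 4.53 against 6.38 and 6.06. The order of the arrays by these means was also that of the fibrillar collagens, so that order was not particular to fibroblast and pericyte markers. Epithelial markers (7 of 7 measured) had means of 11.87 and 12.25 against 11.87 and 12.02, with 4 apart and higher and 2 apart and lower. Among these, Krt14 was apart by only 0.011 log2 units and Krt5 by only 0.0015. Beside the counts of these lists, 35.5% of all genes were apart and higher and 14.0% apart and lower. Krt5, a basal keratin, read 13.24 and 13.26 against 13.32 and 13.26. Cdh1, which encodes E-cadherin, read 9.64 and 10.36 against 10.74 and 11.18 (-0.96 ± 0.32, adjusted p = 0.293). Itgb4, the integrin chain that binds type XVII collagen in the hemidesmosome, read 11.90 and 12.37 against 10.95 and 10.88 (1.22 ± 0.23, adjusted p = 0.195).

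**Figure D4:**
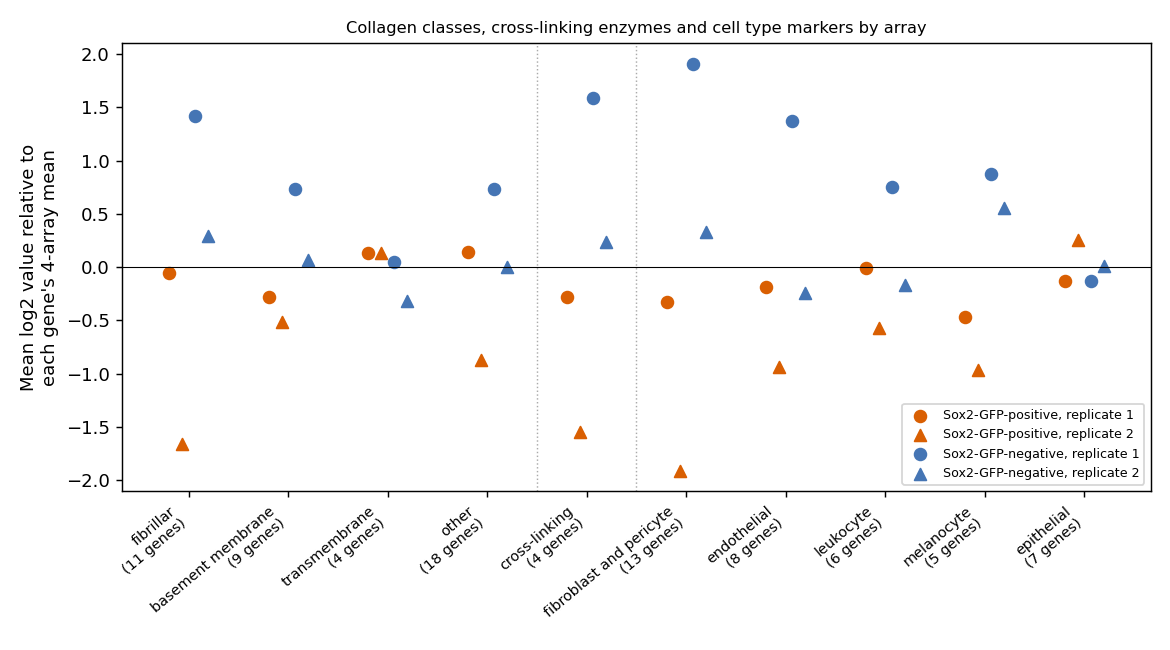
Mean log2 value on each array, relative to each gene's own mean over the 4 arrays (vertical axis), for the collagen classes, the lysyl oxidases and the cell type marker lists. Fibrillar collagens lie at -0.06 and -1.66 in Sox2-GFP-positive and 1.42 and 0.30 in Sox2-GFP-negative arrays, beside -0.33 and -1.91 against 1.91 and 0.33 for fibroblast and pericyte markers.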

How the data were processed

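RNA of sorted tumour epithelial cells was hybridised to whole-genome mouse Affymetrix arrays after 3' in vitro transcription labelling, per the labels' protocols. The authors deposited 1 table of log2 values for 45101 probe sets in 4 columns, 1 per sample; the log2 scale was read from the values (2.73 to 14.36). The submitters' processing notes name R 2.14.0; how the arrays were corrected, normalized and summarised, the sources used here do not say. The 64 control probe sets were left out, and 34945 probe sets had 1 gene symbol, 932 several and 9160 none. All 42 collagens matched RefSeq (GRCm38.p6) by symbol. Arrays have no read depth; their number, 2 per group, limits the precision.

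Each gene's probe set with the highest mean entered limma 3.58.1 (R 4.3.3), with lmFit and eBayes, a single group term and p-values adjusted over all genes (Benjamini-Hochberg). The residual degrees of freedom were 2, with 2.92 more from the prior. The script was tested on simulated data. The series text names 2 tumours as sources of both populations, and from it the replicate numbers were read as pairing the arrays, which the labels do not state. Differences between replicates 1 and 2 in the 2 groups correlated across genes with r = 0.16, and across the 42 collagens with r = 0.58; genes are no independent replicates. Blocked values therefore stand beside the main ones for every collagen and machinery gene called in the blocked fit and for some others. The remaining genes are given from the main fit alone. A dim gene has a mean below that of the median gene.

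The members, classes and lists were chosen with earlier results of these data known. Named genes were the collagens past the threshold with or without the block, those apart by 1 log2 unit, 8 set in advance (Col1a1, Col1a2, Col3a1, Col4a1, Col4a2, Col7a1, Col17a1, Col18a1) and the 4 brightest of each class. From the machinery list they were those past the threshold or apart by 1 log2 unit and the 2 of each role with the largest difference. Other genes named were chosen after their values were seen. Not analysed here were Fkbp10, Adamts2, Adamts14, Loxl2, Itga11 and Fbn1.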

Additional observations from a re-analysis of the deposited data

How the results depend on the processing

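Of 31 named genes, 26 kept the sign of their difference under every alternative run. The block alone and the choice of prior leave the difference unchanged, so no sign could turn in those runs. Some of the 31 were also named for the size of their difference in these same data. The block with quantile normalization called 9 collagens, and those 9 were the same genes as with the block alone. It called 166 lower and 17 higher of all 18193 genes, where the block alone called 158 and 13. With a trended prior the block called 17 collagens (16 lower, 1 higher). Calls over all genes rose as well, to 782 lower and 654 higher. The block without dim genes, and with quantile normalization over the 18193 genes in place of all probe sets, called 0 collagens. Each also called 0 machinery genes and 0 of all genes tested. Both, and the trended prior with the block, were chosen after seeing the data. Machinery and receptor genes called numbered 0 without the block, 6 with it, 6 with quantile normalization added and 10 with a trended prior (8 lower, 2 higher). The blocked counts stand beside those over all genes given above. Spike-in scaling called 15 collagens (14 higher, 1 lower) and 18 machinery genes (16 higher, 2 lower), while 69.0% of all genes were called higher. With it 2 collagens were apart by 1 log2 unit, 1 higher and 1 lower; with quantile normalization there were 2, both lower. Class medians under spike-in scaling were 0.22 for basement membrane, 0.64 for other and 1.19 for transmembrane collagens. Without dim genes the basement membrane and other medians were -2.18 and -1.61. The transmembrane median was 0.19 with the mean of probe sets and 0.056 with the second brightest.

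Leaving out each array called 0 collagens. The count apart by 1 log2 unit ran from 4 to 18. It was 18 without positive replicate 1 (16 lower, 2 higher) and 17 without negative replicate 2 (all lower), where 1 array then stands for its group. Leaving out an array eases this criterion for every gene, and the share over all genes was not counted. The rise is therefore no result about collagens. The fibrillar median ran from -3.62 (without positive replicate 1) to -0.76 (without positive replicate 2), the basement membrane median from -0.91 to -0.21, the transmembrane from 0.20 to 0.60 and the others from -0.30 to 0.062. Single genes whose sign turned ran from -0.043 (without positive replicate 2) to 0.81 for Col7a1, from -0.80 to 0.071 (without positive replicate 2) for Col13a1, from -0.12 (without positive replicate 2) to 1.40 for Col23a1 and from -0.090 (without positive replicate 1) to 0.74 for Col25a1. Col16a1 ran from -1.03 to 0.54 (without negative replicate 1). Signs also turned for Col13a1 (0.42) and Col16a1 (0.55) under spike-in scaling, and for Col25a1 with the mean of probe sets (-0.10) or the second brightest (-0.53). The cause was not tested. The 20 dim collagens had no detection calls, so their values are bounds.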
